A study of Mus musculus with 18 samples.

Results

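The lysosomal genes described here were 46 genes for hydrolases and membrane proteins of the lysosome, taken by symbol from the 31053 genes listed in bulk RNA-Seq of bone marrow-derived macrophages. By role, 7 encode membrane proteins and transporters, 12 act in lipid and sphingolipid breakdown, 12 in glycan and glycosaminoglycan breakdown, 11 are proteases, and 4 are phosphatases, a nuclease and progranulin. All 46 were found and all 46 passed the filter on low counts that left 12290 genes for testing. The macrophages were grown from the marrow of 12-week-old C57Bl/6J mice in medium with macrophage colony-stimulating factor or L-cell conditioned medium. Of 6 mice, 3 were Slc7a7-/-, with the amino acid transporter gene Slc7a7 deleted in myeloid cells by Cre from the LysM locus (the gene Lyz2), and 3 were the corresponding Slc7a7+/+ controls, called knockout and wild type below. Cells of each mouse were treated for 24 h with 50 µg/mL acetylated LDL (AcLDL), with 100 µg/mL oxidized LDL (OxLDL) or with the vehicle PBS (Control), which gave 18 libraries in 6 groups of 3 mice. Because the doses of the LDLs differ, their values are given side by side and were not compared with each other.

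Lysosomes receive modified LDL from endosomes, and their acid hydrolases release cholesterol, fatty acids, sugars and amino acids that membrane transporters export to the cytosol. Most soluble hydrolases reach the lysosome with a mannose 6-phosphate tag, and many of their genes share an E-box-like promoter motif that is bound by TFEB, TFE3 and MITF, transcription factors that answer to nutrients. In macrophages these enzymes also degrade engulfed cells, and inherited loss of single members causes lysosomal storage diseases.

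Total counts were between 1043492 and 1768816 per library. The p-values rest on the spread between mice within groups, pooled over the groups of a fit. In fits with the mouse as block, they rest on the spread that remains after differences between mice are removed. Slc7a7 was lower in the knockout in each treatment, at 4.33 to 10.3 against 11.1 to 21.1 counts per 1000000 after library scaling (CPM) in Control, 2.22 to 5.22 against 23.6 to 28.5 with AcLDL and 8.67 to 10.9 against 25.9 to 29.3 with OxLDL. Lyz2, the locus that carries Cre, was also lower in the knockout with AcLDL (mean 10904 against 25516 CPM, adjusted p = 0.0149) and OxLDL (8971 against 21148 CPM, adjusted p = 0.0263). In Control Lyz2 stood at 15337, 11567 and 12798 CPM in the knockout against 20497, 23637 and 28591 CPM in wild type cells, without overlap. Whether the Slc7a7+/+ controls carry LysM-Cre is not given in the sources used here. All 8 macrophage markers were detected in each group, while dendritic, lymphoid and erythroid marker lists summed to at most 5.20 CPM and stromal markers to at most 26.0 CPM, in a wild type OxLDL library. The summed macrophage markers of wild type mouse 1 were the lowest of their group in each treatment, at 3895, 3733 and 2835 CPM, so results are also given without this mouse where that changes a call.

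The promoters are shown first and were searched for the E-box motif that many lysosomal genes share. RefSeq windows from 250 bases before to 50 bases after the start site (GRCm38) were at hand for 41 members. The E-box CACGTG, searched on both strands and reading alike on both, stood in the windows of 13 of these 41 members (31.7%), against 8.09% of 27025 genes with a window. Its 8-base form TCACGTGA, in which the E-box lies, was found in 5 members (12.2% against 1.12%), namely Cln3, Ctsa, Ctsd, Gla and Mcoln1. Stretches with several matches are printed below 5′ to 3′, with E-boxes in capitals, extended to 8 bases where TCACGTGA matches, and in Gla also with the related TCATGTG in capitals (found in 19.5% of members and 4.31% of genes, on either strand). They come from Lamp1 (chr8:13159094-13159157, plus strand), an abundant glycoprotein of the lysosomal membrane, Cln3 (chr7:126583346-126583391, minus strand), a lysosomal membrane protein lost in juvenile Batten disease, Mcoln1 (chr8:3500442-3500485, plus strand), the calcium channel TRPML1, and Gla (chrX:134601188-134601238, minus strand), alpha-galactosidase A.
Lamp1: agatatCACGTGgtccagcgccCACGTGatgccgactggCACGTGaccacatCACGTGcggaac
Cln3: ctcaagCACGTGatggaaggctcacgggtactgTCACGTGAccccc
Mcoln1: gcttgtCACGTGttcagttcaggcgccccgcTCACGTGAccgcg
Gla: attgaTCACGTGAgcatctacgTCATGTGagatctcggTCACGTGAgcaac

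Lamp1 held 4 E-boxes within 61 bases of its start site, the highest number among the members. A match is a description of the letters and not of binding, which was not measured. Of the 21 E-boxes in member windows, 13 began within 100 bases before the start site. For Ctsa and Lgmn the E-boxes stood only in an alternative RefSeq window, in which no GENCODE transcript was found to begin. The other window of these genes held no E-box. Cln3 also had another window without an E-box, and GENCODE transcripts begin in both of its windows. The printed Cln3 stretch lies within the gene as placed by GENCODE, whose 5′ end is at 126585817 on the minus strand. The printed Mcoln1 stretch runs past the GENCODE start of the gene at 3500457, so its 8-base match lies within the gene as placed there. The other 28 members with a window had no E-box in it, among them the 3 members discussed most below.

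**Figure D1:**
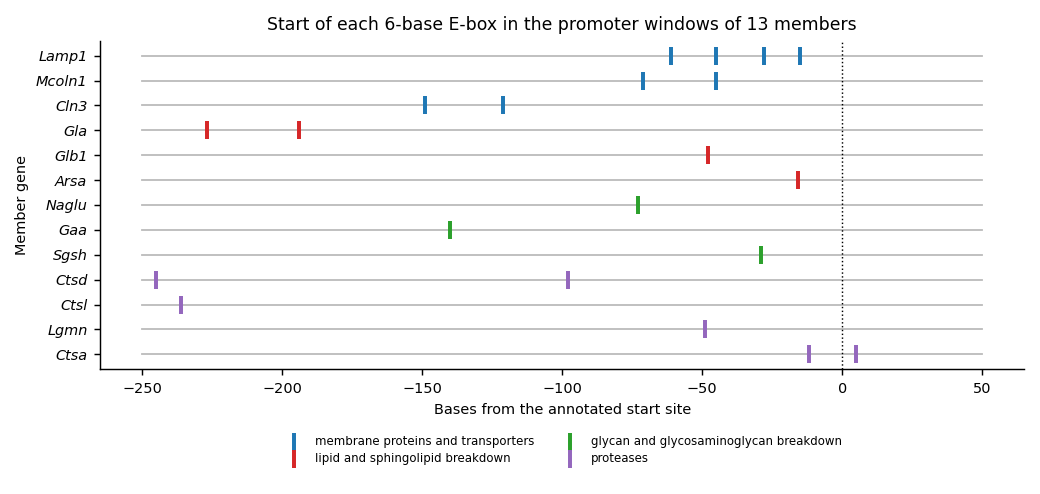
Position of each E-box (vertical ticks, coloured by role) in the promoter windows of the 13 members that hold at least 1, with bases from the annotated start site on the x axis and a grey line for each window. Most ticks lie to the left of the start site and within 100 bases of it, and Lamp1 has 4.

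The next stretches are the 100 bases before the RefSeq start site of Acp2 (chr2:91202812-91202911, plus strand), Ctsc (chr7:88277985-88278084, plus strand) and Ctsz (chr2:174439040-174439139, minus strand), shown because these genes are described most below. They are in lower case throughout, since none of the motifs searched matched there. The stretch of Acp2 runs past the GENCODE start of the gene at 91202885, so its last bases lie within the gene as placed there.
Acp2: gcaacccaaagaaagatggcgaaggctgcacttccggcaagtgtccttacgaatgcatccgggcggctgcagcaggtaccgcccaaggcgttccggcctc
Ctsc: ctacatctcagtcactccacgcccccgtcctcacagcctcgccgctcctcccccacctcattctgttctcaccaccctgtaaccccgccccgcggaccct
Ctsz: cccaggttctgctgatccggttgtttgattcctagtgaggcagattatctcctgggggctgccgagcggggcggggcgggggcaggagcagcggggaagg

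The levels spanned 3 orders of magnitude. As CPM per kilobase of exon, the scale on which genes can be compared, Ctss (cathepsin S, which trims the invariant chain of MHC class II) led the wild type control libraries at 3417 ± 627 (SD, n = 3). Its lowest library, 3048, was above the highest of the next member. Ctsd (the aspartic protease cathepsin D) at 1644 ± 276 and Psap (prosaposin, the precursor of the saposins that present sphingolipids to hydrolases) at 1177 ± 221 overlapped each other. Ctsb (cathepsin B) followed at 949 ± 66.4. The other 6 of the top 10 were Lamp1 (482), Grn (progranulin, 401), Ctsz (cathepsin Z, 381), Hexa (the alpha subunit of beta-hexosaminidase, 307), Laptm5 (a membrane protein of blood cells, 241) and Ctsl (cathepsin L, 238). With the length of the longest transcript in place of the union of exons, Ctsl fell to rank 11 and the lipase gene Lipa, at 211 on the union scale, entered at rank 8. Of the Ctsd sequence, 33.2% of 31-base words also occur in the overlapping gene Gm49369, which stood at a mean of 7.37 CPM in wild type control libraries and at 35.5 CPM with OxLDL (adjusted p = 0.225), so a small share of Ctsd reads may have been assigned to it.

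At the low end were Arsb (arylsulfatase B, which acts on dermatan sulfate) at 8.69 ± 2.0, Arsa (arylsulfatase A, which acts on sulfatide) at 7.69 ± 1.29, Mcoln1 at 7.17 ± 0.867 and Cln3 at 6.85 ± 0.406 CPM per kilobase, whose ranges overlapped. Acp5, the tartrate-resistant acid phosphatase, was lowest at 2.87 ± 1.30. The order above Acp5 depends on the length used, since with the longest transcript Mcoln1 stood at 18.8 (rank 35), Arsb at 12.99 (rank 40) and Cln3 at 12.4 (rank 41), and Smpd1, Idua and Ctsk took ranks 42 to 44. Proteases made up 56.8% of the members' counts in wild type control libraries, lipid and sphingolipid enzymes 21.5%, membrane proteins 11%, glycan enzymes 5.44% and the remaining 4 genes 5.30%.

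**Figure D2:**
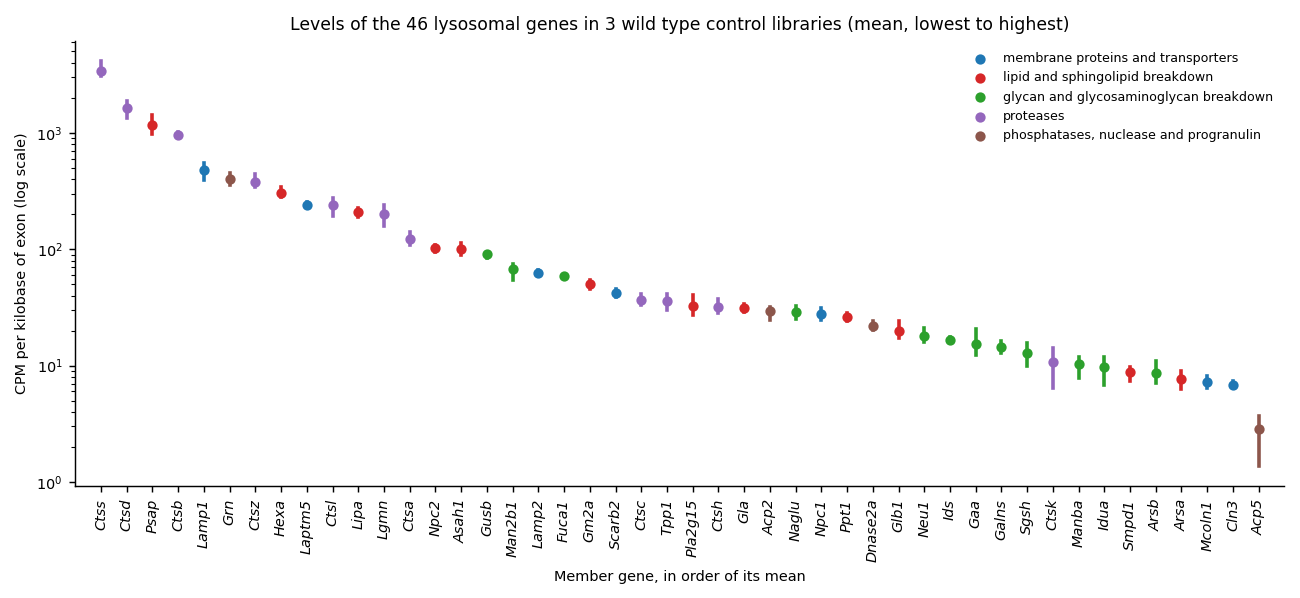
Level of each of the 46 genes in the 3 wild type control libraries, as CPM per kilobase of exon on a log scale, ordered by the mean (point) with a bar from the lowest to the highest library and colours for the role. Ctss, Ctsd, Psap and Ctsb stand above the rest, and Acp5 is lowest at a mean of 2.87.

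The 46 genes together held a steady share of each library. They took 2.87 to 3.40% of the counts of wild type control libraries, 2.98 to 3.27% with AcLDL and 3.14 to 3.29% with OxLDL. In the knockout the shares were 2.81 to 2.99%, 2.70 to 3.08% and 2.72 to 3.07%. All 6 ranges lay between 2.70 and 3.40%. When the genotypes were compared within a treatment, only the OxLDL groups did not overlap. Over the 18 libraries the coefficient of variation was lowest for Lamp2 (a membrane glycoprotein needed for autophagosome fusion) at 6.54% and for Ctsb at 7.20%, and highest for Acp5 at 54.4% and Ctsk (cathepsin K) at 47.8%. These latter genes had 3 to 16 and 4 to 24 counts per library, so counting error limits them.

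AcLDL moved few lysosomal genes, and none past the threshold in the fit without pairing by mouse. In wild type cells, edgeR called 0 of the 46 members (0.472% of all genes were called), DESeq2 called 0, and at an unadjusted p under 0.05 (7.33% of all genes) there was 1 higher and 2 lower. In knockout cells 0 members were called as well (0.521% of all genes), again 0 with DESeq2, with 6 lower and 0 higher at an unadjusted p under 0.05 (7.53%). The median log2 fold change of the members was -0.02 in wild type and -0.08 in knockout cells, and that of all genes tested was within 0.01 of 0 in both. Fitted values were below 0 for 32 and 36 of the 46 members (50.5% and 50.7% of all genes), which with scaling by library size alone became 20 and 24. Without the control library of wild type mouse 3 the wild type count was 18. With the mouse as block, 3 members were called in wild type cells (2.16% of all genes), Arsb higher and Ctsz and Acp2 lower, and 2 in knockout cells (2.5%), Ctsz and Acp2. Beside these, the smallest p-values on the higher side belonged to Lgmn, the asparaginyl protease legumain, in wild type cells (0.19, SE 0.18) and to Lamp2 (0.10, SE 0.12) and Ppt1 (0.21, SE 0.16) in knockout cells. All 5 block calls were kept without mouse 1 of the genotype and lost without mouse 2 or mouse 3.

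OxLDL lowered the phosphatase gene Acp2 in both genotypes and the protease gene Ctsc in the knockout. In wild type cells 1 of 46 members was called, lower (1.07% of all genes were called lower and 1.34% in either direction). In knockout cells 2 were called, both lower (1.66% lower and 2.32% in either direction), and DESeq2 called 4, adding Gm2a and Ctsz, among 299 genes it called in all against 285 by edgeR. At an unadjusted p under 0.05 (10% and 12.3% of all genes) there were 3 higher and 5 lower members in wild type and 1 higher and 8 lower in knockout cells. Fitted values were below 0 for 26 members in wild type (48.9% of all genes, and 17 without the control library of mouse 3) and 28 in knockout cells (49.3%). The median log2 fold change was -0.03 in wild type and -0.06 in knockout cells, where it became 0.01 without the OxLDL library of knockout mouse 1. The median of all genes was within 0.01 of 0. With the mouse as block 4 members were called in wild type cells (4.39% of all genes), namely Psap, Ctsc, Ctsz and Acp2, and 6 in knockout cells (7.18%), namely Npc2, Asah1, Gm2a, Ctsc, Ctsz and Acp2. Both treatments of a genotype share their control libraries, so their changes are not independent.

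**Figure D3:**
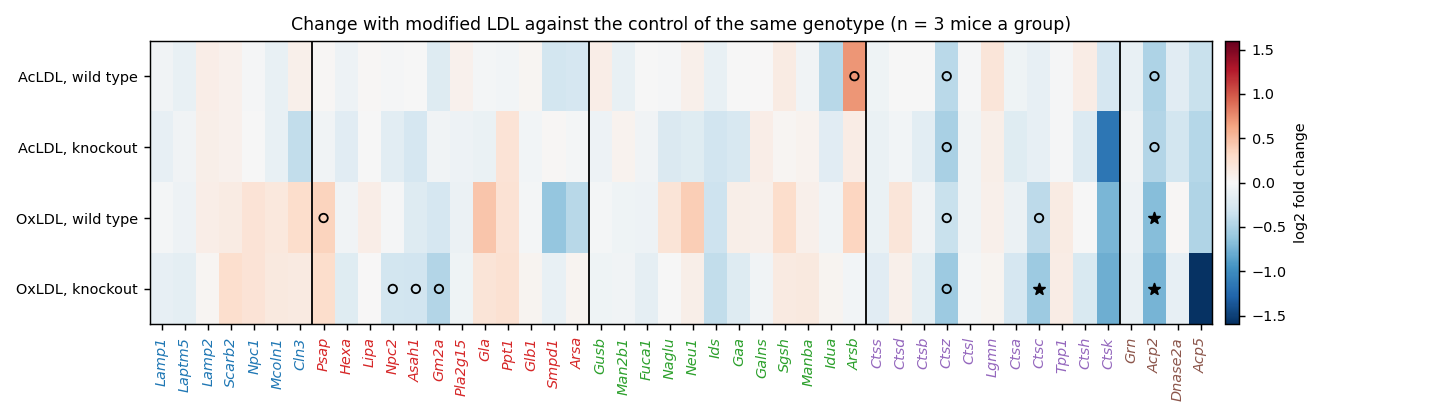
Fitted log2 fold change of each member (columns, labels coloured by role) with AcLDL or OxLDL against the control of the same genotype (rows). Red is higher and blue lower, stars mark an adjusted p under 0.05 (Acp2 with OxLDL in both genotypes, Ctsc in the knockout), and open circles mark calls made only with the mouse as block.

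Acp2 encodes a lysosomal acid phosphatase and lies at chr2:91202885-91214098 on the plus strand. In wild type cells it stood at 128, 162 and 166 CPM in the control libraries of mice 1, 2 and 3, at 104, 98.3 and 122 CPM with AcLDL and at 77.9, 106 and 99.8 CPM with OxLDL. In knockout cells the values were 165, 147 and 157 CPM in Control, 140, 92.2 and 110 CPM with AcLDL and 90.1, 92.4 and 97.7 CPM with OxLDL. In each genotype every LDL library lay below every control library, and the gene was lower in 3 of 3 mice with either LDL. The log2 fold change with OxLDL was -0.68 (SE 0.15, adjusted p = 0.0208) in wild type and -0.74 (SE 0.15, adjusted p = 0.00625) in knockout cells. With AcLDL it was -0.49 (SE 0.15, adjusted p = 0.247) and -0.47 (SE 0.15, adjusted p = 0.260). The block lowered these adjusted p-values to 0.000226 and 3.37e-05 for OxLDL and to 0.0169 and 0.0134 for AcLDL. Without the block the wild type OxLDL call was lost when control mouse 2 (adjusted p = 0.127) or 3 (0.121) or OxLDL mouse 1 (0.0937) or 3 (0.0584) was left out. The knockout OxLDL call was kept without any of the 6 libraries compared (adjusted p from 0.019 to 0.0472) and lost without all libraries of any of the knockout mice (0.0883 to 0.123). With the block, Acp2 was called with OxLDL in both genotypes whichever mouse was left out, whereas its AcLDL calls were lost without mouse 2 or mouse 3 of the genotype. The responses of the genotypes differed by -0.06 (SE 0.22) with OxLDL and 0.03 (SE 0.21) with AcLDL. Ddb2, which overlaps Acp2 on the opposite strand, had means of 1.66 to 5.10 CPM in the control and OxLDL groups.

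Among the papain-family cathepsins, cysteine proteases that differ in cleavage preference, the edgeR fit of all 18 libraries called Ctsc lower with OxLDL in knockout cells. In that fit Ctsz was called lower with LDL only with the block, and none of the others was called. Fitted on the compared libraries alone, without the block, edgeR also called Ctsz with AcLDL in knockout cells. Ctsc (chr7:88278085-88310888), the dipeptidyl peptidase that activates granule serine proteases, stood at 202, 237 and 192 CPM in wild type control libraries and at 126, 173 and 171 CPM with OxLDL. In knockout cells it stood at 204, 205 and 226 CPM in Control and at 118, 146 and 158 CPM with OxLDL. The OxLDL libraries lay below all control libraries in both genotypes. The log2 fold change was -0.42 (SE 0.16, adjusted p = 0.297, with the block 0.0194) in wild type and -0.58 (SE 0.16, adjusted p = 0.0488, with the block 0.000346) in knockout cells. Leaving out any of the 6 libraries compared lost the knockout call without the block (adjusted p from 0.0817 to 0.292), while with the block it held whichever mouse was left out. The wild type block call was lost without mouse 1 or mouse 2. With AcLDL the changes of Ctsc were -0.13 (SE 0.16) and -0.13 (SE 0.15).

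Ctsz (chr2:174427493-174439039), a carboxypeptidase, stood at 512, 493 and 642 CPM in wild type control libraries, at 500, 355 and 369 CPM with AcLDL and at 521, 362 and 406 CPM with OxLDL. In knockout cells it stood at 568, 508 and 495 CPM in Control, at 441, 335 and 326 CPM with AcLDL and at 355, 335 and 358 CPM with OxLDL. Knockout LDL libraries did not overlap with their controls, whereas in wild type cells mouse 1 had about the same level in all 3 treatments and overlapped with the controls. The log2 fold change with AcLDL was -0.43 in wild type (SE 0.16, adjusted p = 0.469, with the block 0.0142) and -0.51 in knockout cells (SE 0.16, adjusted p = 0.240, with the block 0.0023). With OxLDL it was -0.36 (SE 0.16, adjusted p = 0.444, with the block 0.0317) and -0.58 (SE 0.16, adjusted p = 0.0567, with the block 0.000256). Without wild type mouse 1 the gene was also called in wild type cells with either LDL without the block. Ctsz overlaps Nelfcd on the opposite strand, whose OxLDL change was -0.06 (SE 0.31) in wild type and 0.05 (SE 0.30) in knockout cells.

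The abundant cathepsins moved little. With OxLDL, Ctss changed by -0.10 (SE 0.15) and -0.18 (SE 0.15) in wild type and knockout cells, Ctsb by -0.06 (SE 0.13) and -0.16 (SE 0.13), and Ctsl by -0.05 (SE 0.16) and -0.04 (SE 0.16) on the log2 scale. Ctsh, an aminopeptidase, changed by -0.01 (SE 0.16) and -0.25 (SE 0.16), and Ctsd, which is no papain-family member, by 0.19 and 0.09 (SE 0.17 each). The smallest adjusted p among these 5 genes was 0.608. Ctsk, the collagen-degrading cathepsin of osteoclasts, had 4 to 11 counts in each knockout library with AcLDL and 14 to 24 in Control. Its levels there were 3.2, 5.6 and 6.4 CPM against 10.9, 14.9 and 9.0 CPM, a log2 fold change of -1.15 (SE 0.41, adjusted p = 0.357). Acp5, another osteoclast gene, stood at 2.5, 2.7 and 1.7 CPM in knockout OxLDL libraries against 9.6, 4.3 and 7.1 CPM in Control, with a log2 fold change of -1.58 (SE 0.63, adjusted p = 0.259). The 8 osteoclast markers summed to 120 to 156 CPM in all groups, mostly from Nfatc1, with Oscar at 0 counts in every library and Ocstamp at 0 in every OxLDL library. Of them 1 was called with OxLDL in knockout cells, Dcstamp, a fusion protein of osteoclast precursors, at 4.2, 3.4 and 3.5 CPM against 13.9, 16.1 and 20.0 CPM in Control (adjusted p = 0.0481). Itgb3 went the other way, at 5.9, 8.9 and 8.7 against 3.6, 1.2 and 3.9 CPM in knockout cells. In wild type cells Itgb3 stood at 10.8, 6.2 and 6.5 against 1.9, 2.8 and 5.8 CPM. Nfatc1 stood at 114, 93.1 and 117 against 111, 105 and 108 CPM in knockout cells. The part of osteoclast-like cells in the values of Ctsk and Acp5 was not tested.

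**Figure D4:**
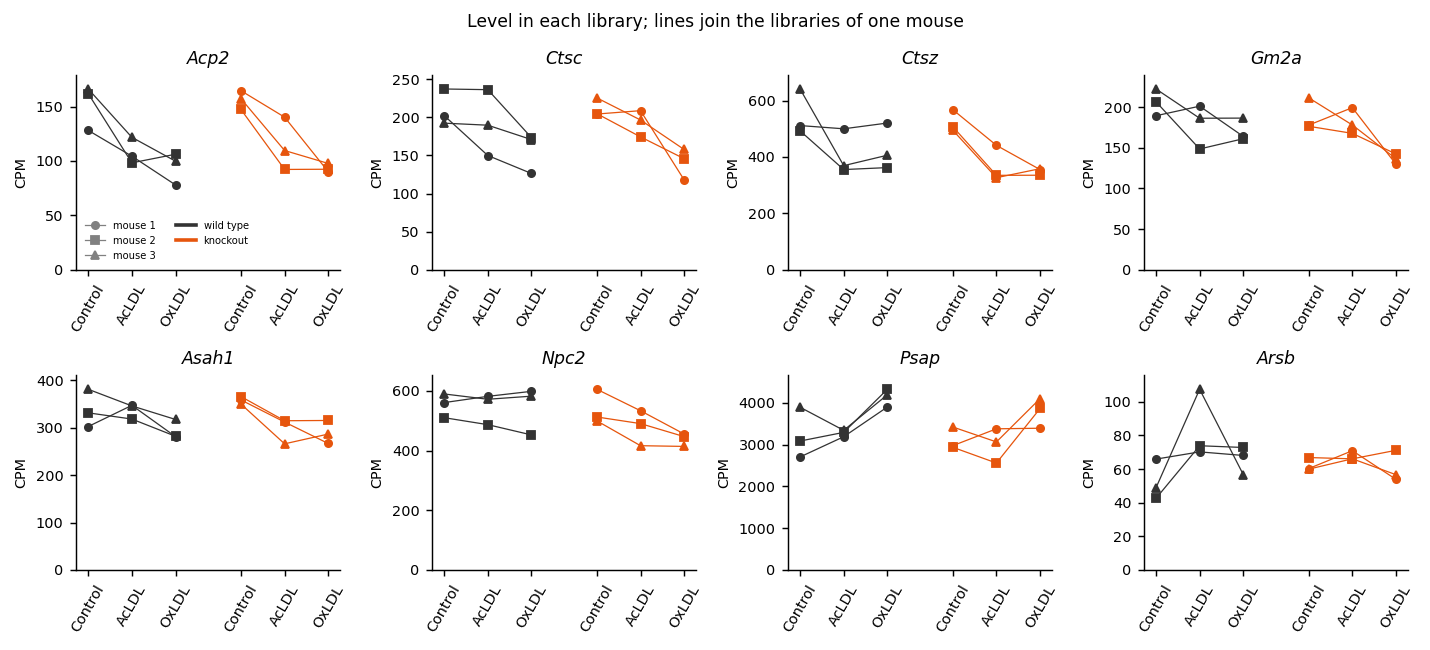
CPM of 8 members in every library, with treatments on the x axis, wild type in black and knockout in orange, and lines that join the libraries of a mouse. Acp2, Ctsc, Ctsz, Gm2a and Asah1 fall with OxLDL in each knockout mouse, Psap rises with OxLDL in each mouse, and Arsb rises with AcLDL mainly in wild type mice 2 and 3.

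Of the lipid and sphingolipid genes, some were lower and Psap was higher with OxLDL, which edgeR, fitted on all 18 libraries, called only with the mouse as block. These members were singled out after their values were seen. Gm2a (chr11:55098115-55113029), the GM2 activator that lifts gangliosides from membranes for beta-hexosaminidase, stood at 178, 176 and 211 CPM in knockout control libraries and at 130, 142 and 136 CPM with OxLDL. These groups did not overlap, and the log2 fold change was -0.47 (SE 0.13, adjusted p = 0.0592, with the block 0.00428), against -0.27 (SE 0.13, adjusted p = 0.484) in wild type cells. Gm2a was also called in the knockout by DESeq2. Asah1, acid ceramidase, stood at 359, 366 and 350 CPM in knockout Control and at 267, 315 and 287 CPM with OxLDL (log2 fold change -0.31, SE 0.12, adjusted p = 0.261, with the block 0.0317). Npc2, the soluble protein that hands cholesterol to Npc1, stood at 605, 513 and 500 CPM in knockout Control and at 455, 447 and 414 CPM with OxLDL (log2 fold change -0.30, SE 0.14, adjusted p = 0.375, with the block 0.0285). In wild type cells the OxLDL changes were -0.21 (SE 0.12) for Asah1 and -0.02 (SE 0.14) for Npc2. The block calls of Asah1 and Npc2 were lost without any of the knockout mice, and that of Gm2a without mouse 3.

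Psap (chr10:60277627-60302597) stood at 2705, 3086 and 3895 CPM in wild type Control and at 3901, 4325 and 4193 CPM with OxLDL, without overlap. In knockout cells it stood at 2976, 2937 and 3422 CPM in Control and at 3393, 3866 and 4102 CPM with OxLDL, with overlap. The gene was higher in 3 of 3 mice of each genotype, with log2 fold changes of 0.36 (SE 0.15, adjusted p = 0.405, with the block 0.0225) and 0.28 (SE 0.15, adjusted p = 0.480, with the block 0.0777). The wild type block call was lost without mouse 1 or mouse 2. Gla, which cleaves terminal galactose from globotriaosylceramide, changed with OxLDL by 0.44 (SE 0.17, adjusted p = 0.321) in wild type and 0.21 (SE 0.17) in knockout cells. In wild type cells it stood at 181 CPM in mouse 1, 109 in mouse 2 and 128 in mouse 3 against 99.3, 94.9 and 110 CPM in Control, and it was called with the block when mouse 2 was left out. Smpd1, acid sphingomyelinase, stood at 14.3, 21.0 and 20.9 CPM in wild type OxLDL libraries against 32.5, 30.7 and 24.8 CPM in Control, a log2 fold change of -0.62 (SE 0.26, adjusted p = 0.405).

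The 7 membrane proteins and transporters had a median log2 fold change with OxLDL of 0.13 in wild type and 0.15 in knockout cells, and 5 of 7 fitted values were above 0 in each, but 0 were called by edgeR, DESeq2 or with the block. At an unadjusted p under 0.05 there was 1, Scarb2, the membrane receptor that carries beta-glucocerebrosidase to lysosomes. It stood at 285, 277 and 282 CPM in knockout OxLDL libraries, above the 232, 227 and 244 CPM of Control (log2 fold change 0.26, SE 0.11, adjusted p = 0.291), and at 280, 290 and 295 against 265, 243 and 285 CPM in wild type cells. Npc1, the cholesterol exporter of the lysosomal membrane, changed by 0.21 (SE 0.13) and 0.22 (SE 0.13). With AcLDL the median of the 7 was -0.02 and -0.06.

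Among the 12 glycan and glycosaminoglycan enzymes, 0 were called in the LDL comparisons by edgeR or DESeq2, and with the block 1 was called, Arsb with AcLDL in wild type cells. Arsb (chr13:93771630-93943016) stood at 65.9, 42.6 and 48.8 CPM in wild type control libraries and at 70.2, 73.9 and 107 CPM with AcLDL. The groups did not overlap, and mouse 3 gave the highest value, while mouse 1 differed by only 0.09 on the log2 scale. The fitted log2 fold change was 0.70 (SE 0.18, adjusted p = 0.108, with the block 0.0142). The adjusted p fell to 0.0187 without the control library of mouse 1 and to 0.00885 without all libraries of that mouse, and the block call was lost without mouse 2 or mouse 3. In knockout cells Arsb stood at 60.3, 66.9 and 59.95 CPM in Control and at 70.9, 66.1 and 66.1 CPM with AcLDL, and the knockout response minus the wild type response was -0.59 (SE 0.25, adjusted p = 1). Neu1, the sialidase that needs Ctsa for stability, stood at 107, 72.8 and 89.3 CPM in wild type OxLDL libraries against 65.0, 60.02 and 78.0 CPM in Control (log2 fold change 0.39, SE 0.15, adjusted p = 0.331).

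Libraries of treated and control groups were also compared by overlap alone. In wild type cells 1 member was higher and 1 lower without overlap with AcLDL (5.5% and 5.48% of all genes), and 3 higher and 5 lower with OxLDL (5.67% and 6.17%). In knockout cells 0 were higher and 9 lower with AcLDL (7.32% and 9.37%), and 2 higher and 13 lower with OxLDL (10.1% and 11.6%). The 13 were Npc2, Hexa, Asah1, Gm2a, Ctsa, Ctsb, Ctsc, Ctsk, Ctsz, Laptm5, Ids, Acp2 and Acp5. Beside the LDL comparisons, the summed macrophage markers stood at 2835 to 5271 CPM with OxLDL against 3895 to 6764 in Control in wild type cells, with overlap, and at 3778 to 4680 against 5567 to 6845 CPM in knockout cells, without overlap. Csf1r was the largest part of the sum. In wild type cells 2 of the 8 markers had fitted values above 0 with OxLDL and 6 below. Mertk was higher, at 67.2, 69.8 and 90.6 against 39.0, 46.8 and 62.7 CPM in wild type cells. In knockout cells Mertk stood at 75.8, 62.3 and 64.2 against 53.7, 34.7 and 53.5 CPM. Mrc1 stood there at 97.7, 192 and 214 against 76.6, 87.3 and 115 CPM, with overlap. Summed neutrophil markers were higher with OxLDL in wild type cells, at 191 to 339 against 107 to 157 CPM, and stood at 97.2 to 152 against 61.9 to 162 CPM in knockout cells. Their part in the results was not tested, and in bulk RNA fewer cells of a type and less RNA per cell cannot be told apart.

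No lysosomal gene of the list was called between knockout and wild type macrophages, but most members had lower fitted levels in the knockout. edgeR and DESeq2 called 0 of 46 members between the genotypes in Control, with AcLDL, with OxLDL and on counts summed per mouse (0.00814%, 0.0163%, 0.00814% and 0.00789% of all genes were called by edgeR). At an unadjusted p under 0.05 there were 1, 4, 3 and 3 lower members and 0 higher in each (4%, 4.89%, 4.78% and 4.13% of all genes). Fitted values were below 0 for 32 of 46 members in Control (49.2% of all genes), 34 with AcLDL (50.3%), 40 with OxLDL (52.1%) and 40 on the summed counts (50.1%). The median log2 fold changes of the members were -0.05, -0.13, -0.12 and -0.09, against values within 0.02 of 0 for all genes. With scaling by library size the counts below 0 were 33, 34, 39 and 40. Without the control library of wild type mouse 3 the Control count was 19, and on summed counts it was 31 without that mouse. These members are not independent of each other, and the comparisons share libraries. Beside them, 7 of 8 macrophage markers had fitted values above 0 on the summed counts (median 0.10) and all 8 neutrophil markers tested below 0 (median -0.98), 5 of these without overlap. The summed neutrophil markers stood at 107 to 157 CPM in wild type against 61.9 to 162 in knockout cells in Control, at 110.2 to 239 against 43.3 to 109.5 with AcLDL and at 191 to 339 against 97.2 to 152 with OxLDL. Their part in the members' values was not tested.

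On the summed counts all 7 membrane proteins and all 11 proteases had fitted values below 0, as did 11 of 12 lipid and 10 of 12 glycan enzymes, but only 1 of the 4 remaining genes. Groups of mice did not overlap for 8 lower members (4.53% of all genes) and 1 higher (4.99%). The 8 were Lamp2, Hexa, Smpd1, Ctss, Cln3, Mcoln1, Scarb2 and Neu1, and the higher was Dnase2a, the lysosomal nuclease that degrades DNA of engulfed cells. Neu1 stood at 61.7, 63.8 and 60.7 CPM in the knockout mice and at 81.6, 67.6 and 80.3 CPM in wild type mice (log2 fold change -0.30, SE 0.11, adjusted p = 0.979). Mcoln1 stood at 44.2, 48.6 and 46.1 CPM against 51.3, 53.8 and 60.6 CPM (log2 fold change -0.26, SE 0.12, adjusted p = 0.979). Ctsk stood at 7.77, 9.23 and 6.61 CPM against 17.9, 8.59 and 12.8 CPM, with overlap (log2 fold change -0.71, SE 0.27, adjusted p = 0.979). Dnase2a stood at 130, 117.979 and 133 CPM against 115, 117.785 and 112 CPM (log2 fold change 0.15, SE 0.10, adjusted p = 0.979), and Gusb differed by 0.12 (SE 0.11). The groups of Dnase2a were thus only just apart. Those of Lamp2 were also close, with the highest knockout mouse at 618.8 CPM and the lowest wild type mouse at 620.1 CPM. None of the 46 passed the adjusted threshold.

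**Figure D5:**
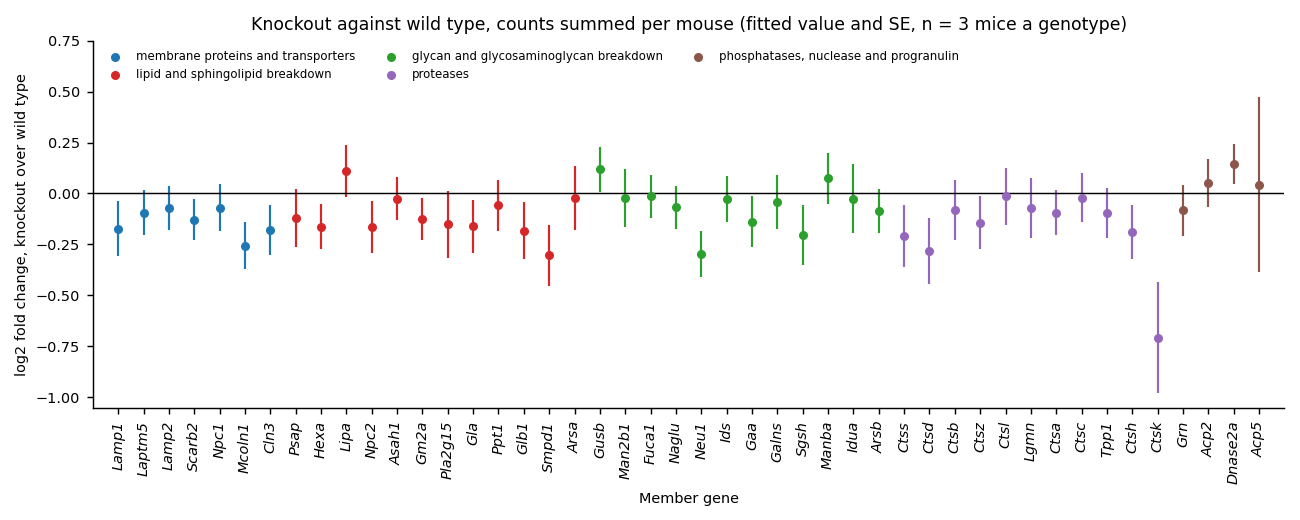
Fitted log2 fold change of each member between knockout and wild type on counts summed per mouse (points) with its SE (bars), ordered and coloured by role. Of the 46 points 40 lie below 0, mostly by less than 0.30, and Ctsk is lowest at -0.71.

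Within treatments the members with the smallest p did not pass the adjusted threshold either. In Control, Smpd1 stood at 19.3, 21.0 and 18.7 CPM in the knockout and at 32.5, 30.7 and 24.8 CPM in wild type cells (log2 fold change -0.57, SE 0.26, adjusted p = 1). With AcLDL, Ctsk stood at 3.2, 5.6 and 6.4 against 16.1, 11.1 and 12.9 CPM (-1.34, SE 0.41, adjusted p = 0.990). Cln3 stood at 31.5, 28.9 and 31.3 against 43.7, 41.4 and 41.5 CPM (-0.46, SE 0.16, adjusted p = 0.990). With OxLDL the values were -0.40 for Neu1 (SE 0.15, adjusted p = 0.933), at 71.6, 65.7 and 65.3 against 107, 72.8 and 89.3 CPM, and -0.32 for Gm2a (SE 0.13, adjusted p = 0.933), at 130, 142 and 136 against 164, 161 and 186 CPM. In all 5 the groups did not overlap. On the higher side were Dnase2a with 0.23 in Control (SE 0.12) and 0.12 with AcLDL (SE 0.13), Gusb (beta-glucuronidase) with 0.19 in Control and 0.16 with OxLDL (SE 0.13 each), Lipa (lysosomal acid lipase, which frees cholesterol from LDL esters) with 0.13 with AcLDL (SE 0.14) and Arsa with 0.22 with OxLDL (SE 0.25). Scarb2 in Control was -0.17 (SE 0.11). Without overlap there were 1, 5 and 7 lower members in Control, AcLDL and OxLDL (4.39%, 4.78% and 4.8% of all genes) and 3, 1 and 0 higher (4.88%, 5.66% and 4.5%).

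Whether knockout and wild type cells responded differently to LDL was tested directly. edgeR called 0 of 46 members for AcLDL and 0 for OxLDL (0% of all genes each), 0 with DESeq2, and 0 with the block (0.0407% and 0%). At an unadjusted p under 0.05 there were 2 lower members for AcLDL, Arsb and Cln3, and 0 for OxLDL (2.66% and 2.75% of all genes). Values below 0 were given by 32 and 35 members (50.4% and 52.9% of all genes). For Cln3 the difference was -0.48 (SE 0.23, adjusted p = 1). It stood at 43.4, 35.3 and 41.9 CPM in knockout Control and at 31.5, 28.9 and 31.3 CPM with AcLDL, but at 38.1, 38.4 and 42.3 against 43.7, 41.4 and 41.5 CPM in wild type cells. For Ctsc, Ctsz and Gm2a the OxLDL responses differed by -0.17 (SE 0.22), -0.23 (SE 0.23) and -0.19 (SE 0.18), and none of these differences was called. Beside these, the smallest p-values belonged to Ppt1 (a depalmitoylating thioesterase) at 0.26 (SE 0.23) and Smpd1 at 0.32 (SE 0.37) for AcLDL, and to Arsb at -0.38 (SE 0.26), Npc2 at -0.27 (SE 0.20), Arsa at 0.48 (SE 0.35) and Smpd1 at 0.50 (SE 0.38) for OxLDL, all with an adjusted p of 1.

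Medians of the 13 members with an E-box in the promoter window and of the 28 without are given here as a description. A difference between these sets was not tested, and values for all genes split in this way are not given. With OxLDL the medians were 0.09 and -0.06 in wild type and 0.04 and -0.11 in knockout cells, with 8 of 13 and 10 of 28 fitted values above 0 in wild type and 8 of 13 and 9 of 28 in knockout cells. For OxLDL the median SE of a member was 0.17 with and 0.15 without an E-box, in each genotype. When libraries or mice were left out, the OxLDL median of all members ranged from -0.08 to 0.06 in wild type cells. In knockout cells it ranged from -0.11 to 0.01. With AcLDL the medians were -0.02 and -0.07 in wild type and -0.10 and -0.07 in knockout cells. Between the genotypes on summed counts the medians were -0.16 and -0.09, and all 13 and 22 of 28 were below 0. With all mice, edgeR with or without the block and DESeq2 called 0 of the 13 in any comparison, and Gla was called with OxLDL in wild type cells with the block when mouse 2 was left out.

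Other lysosomal genes from 5 lists were tested in the same fits. Of 16 genes of the V-ATPase, the pump that acidifies the lysosome, 1 was called, Atp6v0a1, a membrane subunit, higher with OxLDL in knockout cells, where 2.32% of all genes were called. It stood at 291, 319 and 305 CPM against 215, 211 and 229 CPM in Control (log2 fold change 0.48, SE 0.12, adjusted p = 0.035), and in wild type cells its change was 0.23 (SE 0.12, adjusted p = 0.566). Of 10 genes that sort hydrolases by mannose 6-phosphate or sortilin, 1 was called, Sort1, the sorting receptor sortilin, also higher with OxLDL in knockout cells (again beside 2.32% of all genes). It stood at 145, 191 and 169 CPM against 96.5, 110 and 122 CPM in Control (log2 fold change 0.62, SE 0.16, adjusted p = 0.0429), and in wild type cells at 135, 179 and 196 against 114, 95.6 and 125 CPM (0.61, SE 0.17, adjusted p = 0.0719, with the block 0.00239). No gene was called among 19 other hydrolases, 20 other membrane proteins and 12 genes of the TFEB family and its regulators, nor among any of the 5 lists between the genotypes. The block added calls. With AcLDL in wild type cells it called 1 lower gene each among other membrane proteins and the TFEB list (2.16% of all genes). In knockout cells it called 1 lower each in these and in the V-ATPase and sorting lists (2.5%). With OxLDL in wild type cells it called 1 higher sorting gene and 1 higher and 1 lower other hydrolase (4.39%). The higher sorting gene was Sort1, given above. Only 1 other of these genes, singled out after its values were seen, is described. It was Sqstm1, an autophagy receptor, lower with AcLDL at log2 fold changes of -0.48 (adjusted p with the block 0.00137) in wild type and -0.54 (0.000224) in knockout cells.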

How the data were processed

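RNA-Seq was made from bone marrow-derived macrophages of 6 mice in 3 treatments, 18 libraries in all, and groups were taken from the sample labels. The authors trimmed the reads, mapped them to mm10 with STAR and deposited estimated counts per gene from Salmon, per the study's methods and the submitters' processing notes. Tool versions, and whether counting used the strand, are not given in the sources used here. The 46 genes, the other gene lists and the tests were chosen with earlier results of these data known. Estimated counts were rounded to whole numbers. Genes were kept by the edgeR filter with a minimum count of 2 and a total of 10, which left 12290 of 31053 genes (12673 for counts summed per mouse). Counts were scaled by TMM, and CPM use these scaled library sizes. Differences were tested with the quasi-likelihood test of edgeR 4.0.16 (R 4.3.3, limma 3.58.1) in 1 fit of the 6 groups with 12 residual degrees of freedom. P-values were two-sided and adjusted over all genes tested by the Benjamini-Hochberg method, with a threshold of 0.05. Standard errors were computed from the fits. DESeq2 1.42.0, scaling by library size, other filters, fits of only the libraries compared, and fits without each library were run as alternatives. All 3 libraries of a mouse were also left out together, which was chosen after seeing the data.

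The labels give the mouse of each library, so the 3 treatments of a genotype are paired by animal, and a fit with the mouse as block was run. Deviations from group means of libraries of a mouse correlated at 0.055 to 0.293 (median 0.158) over 18 pairs, with 14 over 0.1. Libraries of a group differed by more than counting noise, with a chi-square per degree of freedom of 2.03 to 12.7. The members named are those called by edgeR, the 2 higher and 2 lower members with the smallest p in each comparison, the 10 highest and 5 lowest by CPM per kilobase, and the papain-family cathepsins, and others were singled out after their values were seen. Intervals were not drawn for single counts, and 3 to 24 counts per library for Acp5 and Ctsk limit their precision. All 18 columns of the count table belong to these samples, with 0 columns of other samples. The scripts were tested on simulated data. Coordinates and lengths are from GENCODE on GRCm38, and promoter windows from RefSeq on GRCm38.p6. Figures were drawn with matplotlib 3.10.9. A result for 1 gene of the other lists is not reported here.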

Additional observations from a re-analysis of the deposited data

How the results depend on the processing

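The count of members called moved with the setting in the LDL comparisons. For AcLDL in wild type cells it was 0, 1 without a filter, 3 with the replicate block, 0 to 1 without a library (1 without the control library of mouse 1) and 2 without all libraries of mouse 1. For AcLDL in knockout cells it was 0, 1 when fitted on the compared libraries alone (Ctsz) and 2 with the block. For OxLDL in wild type cells it was 1, 0 when fitted on the compared libraries alone, 4 with the block, 0 to 1 without a library, 2 without mouse 1, and 0 without mouse 2 or mouse 3. For OxLDL in knockout cells it was 2, 4 with DESeq2 or when fitted on the compared libraries alone, 1 with scaling by library size, 6 with the block, 1 without any library, and 0 without all libraries of any mouse. The block changed no other count of calls. With the block and without mouse 1, 2 or 3, the counts were 3, 0 and 0 (AcLDL, wild type), 2, 0 and 0 (AcLDL, knockout), 2, 2 and 3 (OxLDL, wild type) and 5, 4 and 3 (OxLDL, knockout). The median log2 fold change with OxLDL in knockout cells ranged from -0.11 to 0.0066 without a library. The value of Arsa between the genotypes with OxLDL (0.22) ranged from -0.11 without the OxLDL library of knockout mouse 3 to 0.38. The value of Smpd1 for the difference in AcLDL response (0.32) ranged from -0.038 without the AcLDL library of knockout mouse 3 to 0.58, and was -0.069 without that mouse. The cause was not tested. All counts between the genotypes and of their difference in response were 0 in every alternative run. With about 1043492 to 1768816 counts per library, members at a few counts cannot show small changes.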
